A study of Oryctolagus cuniculus with 12 samples.

Results

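HBB2 and ALAS2 are a pair of genes characteristic of red blood cells and their precursors, read here in RNA from the body of the uterus of rabbits of the New Zealand White breed. They were found by symbol in the gene name column of the authors' deposited comparison tables, HBB2 as ENSOCUG00000000568 and ALAS2 as ENSOCUG00000013603, and are 2 of the 17301 genes measured in each library. RNA was sequenced from 12 animals, 3 in each of 4 groups and 1 library per animal. All had their estrus and ovulation cycles synchronised with eCG and hCG. Control animals received saline and CsA vehicle. LPS animals were infused with lipopolysaccharide at 4 mg/kg, a bacterial cell wall molecule that sets off innate immunity. CsA animals were injected intramuscularly with cyclosporine A at 20 mg/kg, which blocks calcineurin in T cells, and LPS+CsA animals received both agents. The uterus was sampled 3 h into treatment. The labels disagree on whether the infusion was intrauterine or intravaginal, on the vehicle of the injection and on when CsA was given relative to LPS, so the exposure to each agent before sampling is not fixed. Age and sampling of blood are not given in the labels, and neither is any perfusion to clear blood from the tissue.

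Red blood cells take up oxygen with haemoglobin, a tetramer of alpha-type and beta-type globin chains that each hold a heme. HBB2 encodes an adult beta-globin chain of the rabbit. ALAS2 encodes the erythroid form of 5-aminolevulinate synthase, the mitochondrial enzyme that starts heme synthesis in red cell precursors and that other cells replace with ALAS1. Young red cells that still carry RNA circulate in blood, so both transcripts can be read in any tissue that holds blood. Mature red cells of mammals have no nucleus and make no new RNA.

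The choice of the genes bears on what can be tested. Both were chosen by the authors' own fold change and p-value: they have a symbol because the deposited LPS comparison lists them as lower in LPS than in Control. In that authors' deposited table HBB2 has a log2 fold change of -1.24 and a p-value of 4.86e-07, and ALAS2 a log2 fold change of -1.16 and a p-value of 0.0177, among 283 listed genes whose smallest absolute change is 1.00. The difference between LPS and Control is therefore given as a description, and so is the difference between LPS+CsA and LPS, which rests on the same LPS libraries. Neither gene is among the 234 genes of the authors' deposited table of LPS+CsA against LPS. The 3 comparisons that the authors' tables do not make were tested for both genes within a fit over 12794 genes. They still share their Control or LPS+CsA libraries with the described comparisons.

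HBB2 was an abundant transcript in every animal. FPKM values, which scale reads to transcript length and library size, ran from 108 in LPS 1 to 374 in Control 1, a range of 3.45-fold. Ranked by FPKM within its library, HBB2 stood between place 188 and place 806 of the 17301 genes, and it held between 0.0153% and 0.0644% of the FPKM sum. ALAS2 was a low transcript, from 1.28 FPKM in CsA 3 to 5.80 in Control 1, a range of 4.52-fold, and stood between place 8540 and place 11791. Both genes passed the filter of at least 1 FPKM in at least 3 libraries, with every library above 1 FPKM.

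In Control, HBB2 was at 374, 214 and 208 FPKM in animals 1, 2 and 3. In LPS it was at 108, 126 and 125 FPKM. In CsA it was at 200.2, 138 and 169 FPKM. These values show a Control group led by 1 animal and an LPS group whose animals lay close together below every Control and every CsA animal. In LPS+CsA, HBB2 was at 335, 119 and 249 FPKM, so that 2 of these animals lay above every LPS animal and the other lay among them. The group means in falling order were 265 ± 94.0 FPKM in Control, 235 ± 109 in LPS+CsA, 169 ± 31.0 in CsA and 120.0 ± 10.1 in LPS (SD, n = 3). Control and LPS+CsA overlapped, as did LPS+CsA and CsA, and each of these neighbouring means differed by less than the larger SD of the pair. CsA and LPS did not overlap, as held for 11.7% of the 12794 genes in this direction, and nothing is read from it, since HBB2 was listed for low values in these LPS libraries.

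ALAS2 was at 5.80, 2.94 and 2.83 FPKM in Control animals 1, 2 and 3. In LPS it was at 1.43, 2.01 and 1.83 FPKM. In CsA it was at 2.09, 1.90 and 1.28 FPKM. Control 1 again stood apart from the other Control animals, and all LPS and CsA animals lay below all Control animals. In LPS+CsA, ALAS2 was at 3.95, 1.66 and 3.02 FPKM, with LPS+CsA 2 again the low animal. The means were 3.86 ± 1.69 FPKM in Control, 2.88 ± 1.15 in LPS+CsA, 1.76 ± 0.295 in LPS and 1.76 ± 0.422 in CsA (SD, n = 3). LPS and CsA did not differ beyond their spread, and Control and LPS+CsA overlapped.

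**Figure D1:**
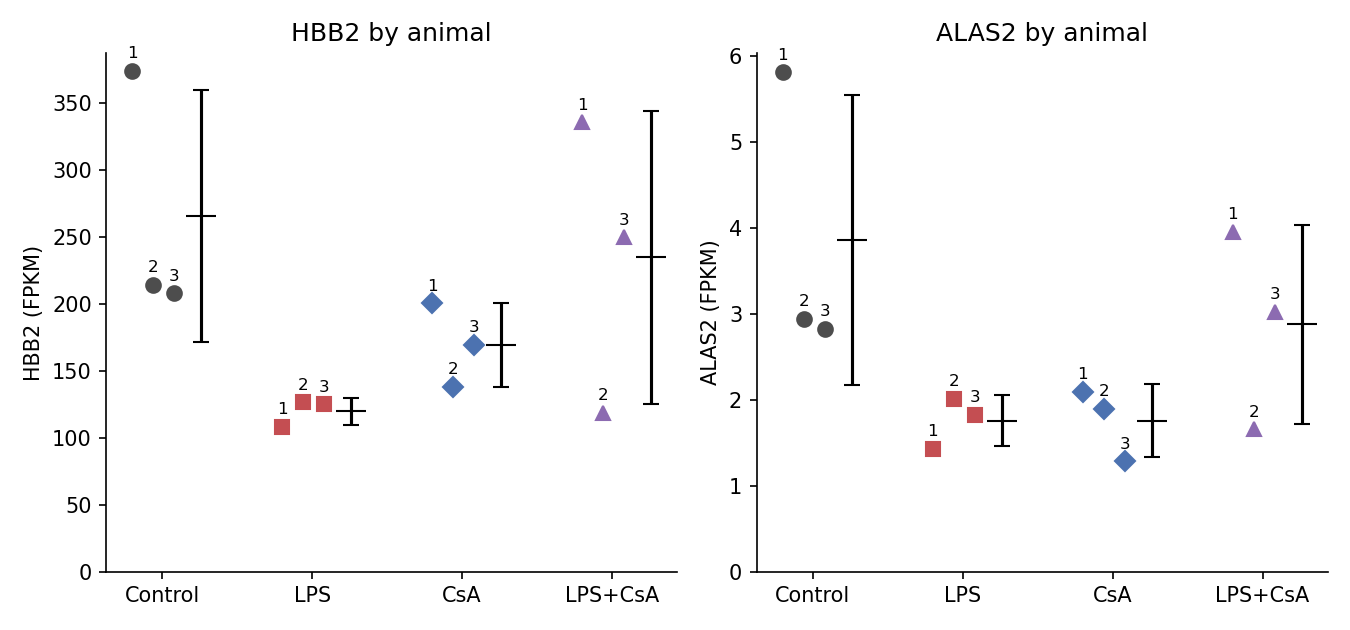
FPKM of HBB2 (left) and ALAS2 (right) in each of the 12 animals by group, numbered by animal, with the group mean ± SD as a bar and whiskers (n = 3). In both genes Control 1 was the highest animal, LPS+CsA 2 was low within its group, and the LPS and CsA animals lay below all Control animals.

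The spread between animals was itself unequal between groups. For HBB2 the coefficient of variation was 35.4% in Control and 46.6% in LPS+CsA, against 18.3% in CsA and 8.44% in LPS. For ALAS2 it was 43.7%, 40.1%, 24.0% and 16.8% in the same order. The animals of the LPS group thus had the closest values for both genes. Nothing is read from it, since both genes were listed by a p-value on these same LPS libraries. Whether the spread differed between groups was not tested.

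The authors' table gives the read counts behind the Control and LPS values. HBB2 rested on 5065, 3310 and 2685 reads in Control 1 to 3 and on 1451, 1627 and 1635 in LPS 1 to 3. ALAS2 rested on 176, 91 and 84 reads in Control and on 43, 60 and 55 in LPS. The exact Poisson 95% interval was 4926 to 5206 reads for HBB2 in Control 1 and 151 to 204 for ALAS2 there, above the intervals of 73.3 to 112 and 67.0 to 104 for ALAS2 in Control 2 and Control 3. In LPS the intervals of ALAS2 overlapped, the lowest being 31.1 to 57.9 and the highest 45.8 to 77.2 reads. These intervals cover counting error only, and no source states whether the counts are raw. For both genes the gap between Control 1 and the other Control animals was wider than counting error, while the differences of ALAS2 among LPS animals were not.

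The authors' counts and FPKM values of HBB2 were not in the same ratio in every library. HBB2 had 15.5 reads per FPKM in Control 2 and between 12.9 and 13.6 in the other 5 libraries with counts. ALAS2 had between 29.7 and 30.9 reads per FPKM in all 6. By FPKM, Control 2 and Control 3 were nearly level for HBB2, whereas their counts were 3310 and 2685. HBB2 belongs to a cluster of globin genes with similar sequences. The reference gene table for assembly mOryCun1.1 gives HBB and HBB1 as synonyms of HBB2, with HBE1 and HBG2, which are globin genes of early development, close by. How the authors' counting shared reads between such copies is not given, so the HBB2 value may include reads of a near-identical copy.

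The LPS and Control groups did not overlap in either gene. The mean FPKM of HBB2 in LPS was 0.452 of that in Control, and that of ALAS2 was 0.456 of it. On the log2(FPKM + 1) scale HBB2 differed by -1.09 ± 0.34 and ALAS2 by -0.77 ± 0.27 (SE, limma), a scale that understates the change of a gene as low as ALAS2. Lower in LPS with no overlap held for 5.24% of the 12794 genes, and since the authors listed the members for this contrast nothing is read from their standing among these. Without Control 1, the animal with the highest value of both genes, the difference was -0.81 for HBB2 and -0.50 for ALAS2. In bulk tissue, fewer red cells and less RNA per red cell cannot be told apart, and the amount of blood left in each piece of tissue was not measured.

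Between LPS and LPS+CsA both genes were higher by mean with CsA, by 1.96-fold for HBB2 and 1.64-fold for ALAS2. The groups overlapped in both genes through LPS+CsA 2, which was below LPS 2 and LPS 3 in each. The log2 difference was 0.84 ± 0.34 for HBB2 and 0.45 ± 0.27 for ALAS2 (SE, limma). Leaving out LPS+CsA 1 took these to 0.52 and 0.25, and leaving out LPS+CsA 2 took them to 1.27 and 0.70.

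The comparison of CsA with Control asked whether CsA alone went with a different level. Every CsA animal lay below every Control animal in both genes, HBB2 at 0.638 of the Control mean and ALAS2 at 0.456 of it. Neither difference passed the test. HBB2 differed by -0.61 ± 0.34 on the log2 scale (SE; 95% interval -1.36 to 0.15) and ALAS2 by -0.78 ± 0.27 (95% interval -1.38 to -0.17), with an adjusted p of 0.932 for both in limma. Unadjusted, the limma p was 0.105 for HBB2 and 0.0165 for ALAS2. An exact two-sided permutation test of the 3 against 3 animals gave p = 0.1 for each, the smallest it can give.

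Limma called 0 of the 12794 genes in CsA against Control, which is 0% of genes, with 594 at an unadjusted p under 0.05. Of all genes, 1.71% were lower in CsA at an unadjusted p under 0.05, as ALAS2 was and HBB2 was not, and 3.68% were lower with no overlap, as both members were. The CsA libraries took no part in the authors' listing, but the Control libraries did, and the members were listed because Control was high against LPS. Without Control 1 the log2 difference was -0.33 for HBB2 and -0.51 for ALAS2.

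LPS+CsA and Control overlapped in both genes. HBB2 in LPS+CsA stood at 0.884 of the Control mean, with a log2 difference of -0.25 ± 0.34 (SE; 95% interval from just under -1 to 0.51), and ALAS2 at 0.746 of it, with -0.32 ± 0.27 (95% interval -0.92 to 0.29). The limma adjusted p was 0.964 and 0.941, and the exact permutation p was 0.8 and 0.6. The sign for HBB2 turned to 0.03 without Control 1 and to 0.18 without LPS+CsA 2, and ALAS2 came to -0.05 and -0.07 without these animals. Without LPS+CsA 1 the differences were -0.57 and -0.52, and that of HBB2 was -0.37 without Control 2 and -0.39 without Control 3. Limma called 0 genes, 0% of the 12794, with 617 at an unadjusted p under 0.05.

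LPS+CsA against CsA compares animals with and without LPS under CsA. HBB2 stood 1.39-fold higher by mean with LPS, a log2 difference of 0.36 ± 0.34 (SE; 95% interval -0.40 to 1.12), and ALAS2 1.64-fold higher, with 0.46 ± 0.27 (95% interval -0.15 to 1.06). In both genes LPS+CsA 1 and LPS+CsA 3 lay above all CsA animals, while LPS+CsA 2 lay below all of them for HBB2 and among them for ALAS2. Neither passed, with limma adjusted p of 0.807 and 0.722 and exact permutation p of 0.5 and 0.3. Limma called 0 genes, 0% of the 12794, with 892 at an unadjusted p under 0.05. The HBB2 difference was 0.04 without LPS+CsA 1, 0.79 without LPS+CsA 2 and 0.22 without CsA 2. The ALAS2 difference was 0.26 without LPS+CsA 1 and 0.71 without LPS+CsA 2.

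**Figure D2:**
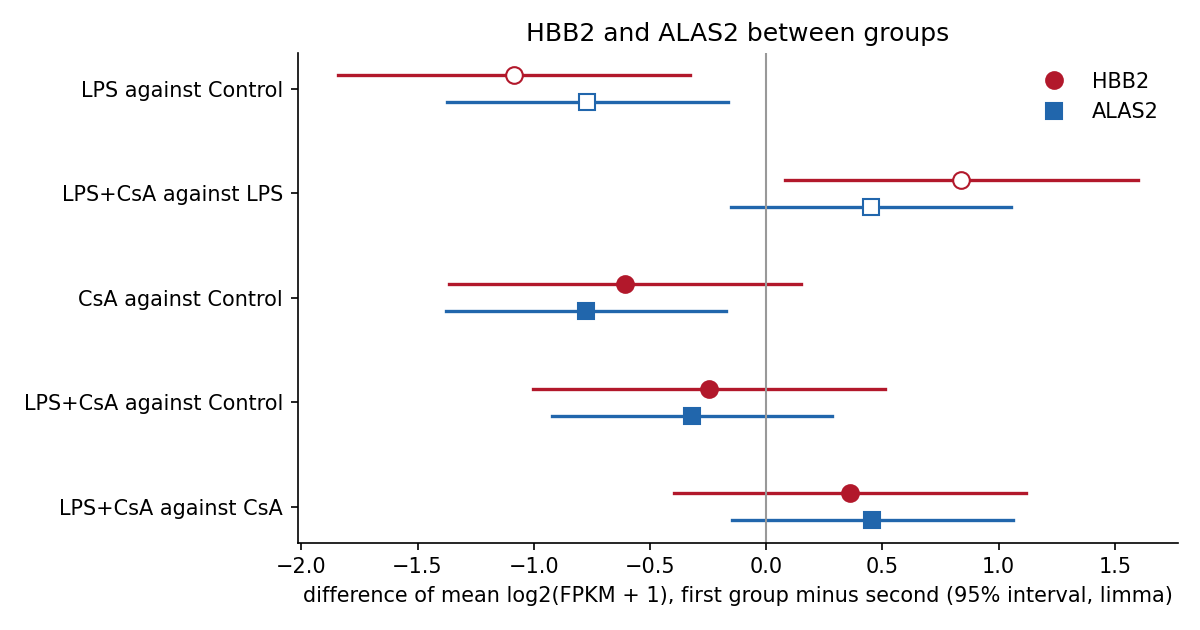
Difference of mean log2(FPKM + 1) between groups, first minus second, for HBB2 (circles) and ALAS2 (squares), with 95% intervals from limma. Open symbols are comparisons given as a description because they hold the LPS libraries by which the genes were listed as low. Filled symbols are the tested comparisons, none of which passed at an adjusted p under 0.05 in limma. Those with Control still rest on the Control libraries by which the genes were listed as high against LPS.

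The level of HBB2 and the level of ALAS2 followed each other from animal to animal. Over all 12 libraries Pearson's r of log2(FPKM + 1) was 0.896, a description, since both genes were listed for the same group difference. Without the 2 animals farthest from the HBB2 median it was 0.762. To set the group difference aside, each value was expressed as its deviation from the mean of its own group. The deviations of HBB2 and ALAS2 correlated with r = 0.890 and Spearman's rho = 0.895 over 12 animals, with p = 0.0193 and p = 0.0116 in exact two-sided permutation tests within groups. Adjusted for these 2 tests, both exact permutation p were 0.0193.

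The deviations had the same sign in 10 of the 12 animals. Control 1 was above its group mean by 0.55 in HBB2 and by 0.54 in ALAS2 on the log2 scale. LPS+CsA 1 was above by 0.64 and 0.40, and LPS+CsA 2 had deviations of -0.85 and -0.50. The exceptions were CsA 2, at -0.27 for HBB2 and 0.08 for ALAS2, and CsA 3, at 0.02 and -0.26. Without the 2 animals farthest from the HBB2 median, LPS+CsA 1 and LPS+CsA 2, r was 0.823. LPS+CsA 3 was then alone in its group and had no deviation of its own, so the LPS+CsA group no longer contributed. The r of 0.823 thus describes the Control, LPS and CsA animals only. No test is read from it, and the relation is not shown to pass without those animals. The same limit holds below wherever these 2 animals are left out of the deviations. Leaving out single animals gave r between 0.836 and 0.950. The exact permutation p then lay above the threshold without Control 1 (0.0741) and without LPS+CsA 1, LPS+CsA 2 or LPS+CsA 3 (0.0579 for each), in a test with fewer arrangements.

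**Figure D3:**
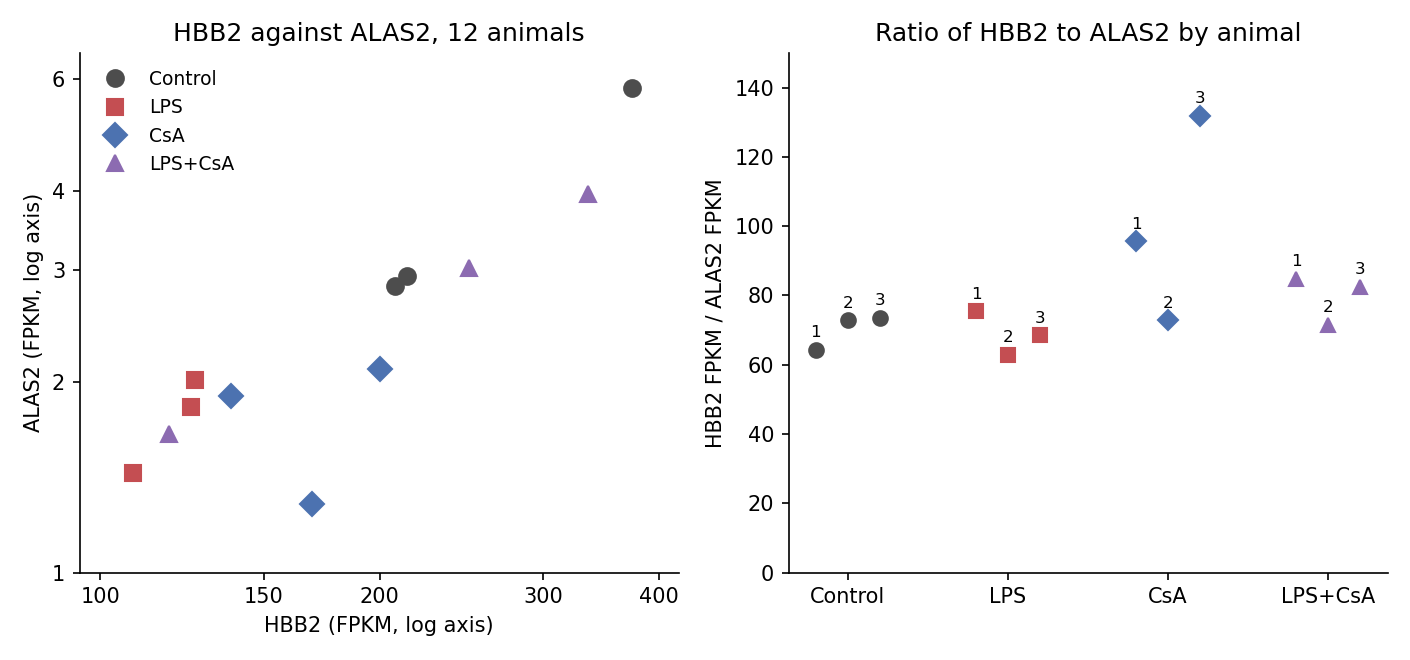
Left, FPKM of HBB2 against ALAS2 on log axes in the 12 animals, with a symbol per group. Right, the HBB2 to ALAS2 ratio of FPKM in each animal, which lay between 62.9 and 84.9 in the 9 animals outside the CsA group and reached 132 in CsA 3.

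The ratio of HBB2 to ALAS2 within a library does not depend on library size, and both values are per length. It was 64.4, 72.8 and 73.5 in Control and 75.5, 62.9 and 68.5 in LPS. In LPS+CsA it was 84.9, 71.6 and 82.6. In these 9 animals HBB2 ranged over more than 3-fold while the ratio stayed between 62.9 and 84.9. In CsA it was 95.7, 72.8 and 132, with the widest spread of the 4 groups. CsA 3, the animal with the lowest ALAS2 of the series, carried the highest ratio. Control and LPS had near-equal mean ratios of 70.2 ± 5.09 and 68.9 ± 6.34 (SD, n = 3), against 79.7 ± 7.09 in LPS+CsA and 100.1 ± 29.7 in CsA. No read counts were available for CsA animals, so the counting error of the low ALAS2 value in CsA 3 could not be given.

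Among the other 12793 genes tested, HBB2 was the gene whose deviations were most like those of ALAS2, at rank 1. Seen from HBB2, ALAS2 was at rank 5 of 12793 and first of the 256 other genes with a symbol. Over all genes the median r with HBB2 was -0.06, and 5% of genes lay above 0.515. The genes above ALAS2 in this ranking had no symbol. ENSOCUG00000014628 was at rank 1 for HBB2 (r = 0.934) and at rank 3 for ALAS2 (r = 0.883), with levels between 31.7 and 42.8 FPKM, a far narrower range than that of either member. The assembled locus Rabbit_newGene_4352 came next for HBB2 (r = 0.906), at 1.61 to 3.10 FPKM. ENSOCUG00000026784 came second for ALAS2 (r = 0.884), at 4.91 to 10.8 FPKM. No p is given for these ranks, since so many genes were compared over so few animals.

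The other genes with a symbol nearest to HBB2 were KRT75 (r = 0.805, rank 19), KRT82 (0.697), OPTC (0.681) and PLA2G2D (0.600). KRT75 and KRT82 encode type II keratins of hair, OPTC opticin, an extracellular matrix proteoglycan, and PLA2G2D a secreted phospholipase. KRT75 had the same sign of deviation as HBB2 in 11 of 12 animals. Its level was 32.1, 18.5 and 18.3 FPKM in Control, 4.90, 5.60 and 6.58 in LPS, 11.9, 5.54 and 15.1 in CsA, and 25.7, 13.02 and 29.2 in LPS+CsA. Like HBB2 it was thus highest in Control 1 within Control and lowest in LPS+CsA 2 within LPS+CsA. For ALAS2 the nearest after HBB2 were CKMT2, a mitochondrial creatine kinase of muscle (0.702), KRT84, another keratin of hair (0.659), PLLP, a membrane proteolipid (0.617), and BCAN, a matrix proteoglycan (0.549). Only genes of the authors' comparison tables have a symbol, so these names come from a small and selected part of the genes.

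Of 74 erythroid, heme and iron genes that were looked for, 3 had a symbol in the series: HBB2, ALAS2 and STEAP3. Alpha-globin, the enzymes of heme synthesis after ALAS2, the membrane proteins of red cells and the erythroid transcription factors have no identifier paired with a symbol here and are not analysed. The erythroid label thus rests on HBB2 and ALAS2 themselves. STEAP3 is a ferrireductase that reduces the iron taken up with transferrin in red cell precursors, and it is also made by other cells. Its level was 1.96 ± 0.160 FPKM in Control, 1.77 ± 0.280 in LPS, 4.09 ± 2.28 in CsA and 4.37 ± 1.41 in LPS+CsA (SD, n = 3). STEAP3 did not follow the members. Its deviations correlated with those of HBB2 at r = -0.58 and with those of ALAS2 at -0.27, as a description over 12 animals. Without the 2 farthest from the HBB2 median these were -0.55 and -0.01. In CsA against Control STEAP3 differed by 0.69 ± 0.28 on the log2 scale (SE), and in LPS+CsA against Control by 0.82 ± 0.28. The limma adjusted p was 0.932 and 0.941, so that 0 of the 3 genes passed in either direction. Like the members, STEAP3 has a symbol only because the authors' tables list it. Its difference was -0.10 ± 0.28 in LPS against Control and 0.92 ± 0.28 in LPS+CsA against LPS (SE, limma). Its LPS+CsA values may thus be those by which it was listed, so nothing is read from them.

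Genes of white blood cells were looked at beside the members, since they too reach tissue with blood. Of 11 neutrophil genes, S100A8, S100A9 and S100A12 had a symbol. Their summed level ran from 8.68 to 276 FPKM in Control, 60.2 to 73.3 in LPS, 16.7 to 399 in CsA and 14.0 to 527 in LPS+CsA. S100A8, a calcium-binding protein of neutrophils, was at 4.46, 19.1 and 166 FPKM in Control 1, 2 and 3. Control 1, the animal with the highest HBB2 and ALAS2, thus had the lowest S100A8 of the series. In LPS+CsA, S100A8 was at 129, 7.90 and 344 FPKM and lowest in animal 2, as HBB2 was. Over all animals the deviations of the 3 neutrophil genes correlated with those of HBB2 at r between 0.25 and 0.30, and with those of ALAS2 at r between -0.13 and -0.08. Without the 2 animals farthest from the HBB2 median the sign with HBB2 turned, to r between -0.31 and -0.21, and r with ALAS2 was between -0.70 and -0.61. The sign with HBB2 and the size of r with ALAS2 thus changed with those animals, so no relation is read.

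Of 9 B and plasma cell genes, JCHAIN, MZB1, DERL3 and IGHM had a symbol, and their summed level ran from 40.9 to 137 FPKM in Control, 18.2 to 28.5 in LPS, 17.7 to 47.1 in CsA and 73.0 to 135 in LPS+CsA. By these sums LPS and CsA were low and LPS+CsA high, as were the means of HBB2, although HBB2 in LPS+CsA 2 lay among the LPS animals. These genes too have a symbol only because the authors' comparison tables list them, so nothing is read from the shared group pattern. Their part in the HBB2 difference was not tested. Within groups the relation had the other sign for 3 of the 4. MZB1, a chaperone of antibody-secreting cells, had deviations that correlated with those of HBB2 at r = -0.857 and with those of ALAS2 at -0.762, and IGHM, the constant chain of immunoglobulin M, at -0.808 and -0.659. Without the 2 animals farthest from the HBB2 median, r with HBB2 was -0.751 for MZB1 and -0.697 for IGHM. JCHAIN was at -0.529 with HBB2, and at -0.598 without these animals. DERL3, which helps clear misfolded secretory proteins, went the other way, at 0.171 with HBB2 and 0.195 with ALAS2, and at 0.732 and 0.531 without these animals, so the listed plasma cell genes had no common relation to the members. MZB1 was at 12.1 FPKM in LPS+CsA 2, where HBB2 was low, and at 3.45 in LPS+CsA 1, where HBB2 was high. The deviation of MZB1 had the sign opposite to that of HBB2 in 7 of 12 animals and the same sign in 5. Which animals carried the relation was not tested. TRAC, the one T cell gene of 9 with a symbol, was at r = -0.35 with HBB2. No platelet, monocyte, pan-leukocyte, endothelial, smooth muscle, epithelial or stromal gene of the lists had a symbol, so neither the blood content nor the labelled tissue could be checked against its defining markers.

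**Figure D4:**
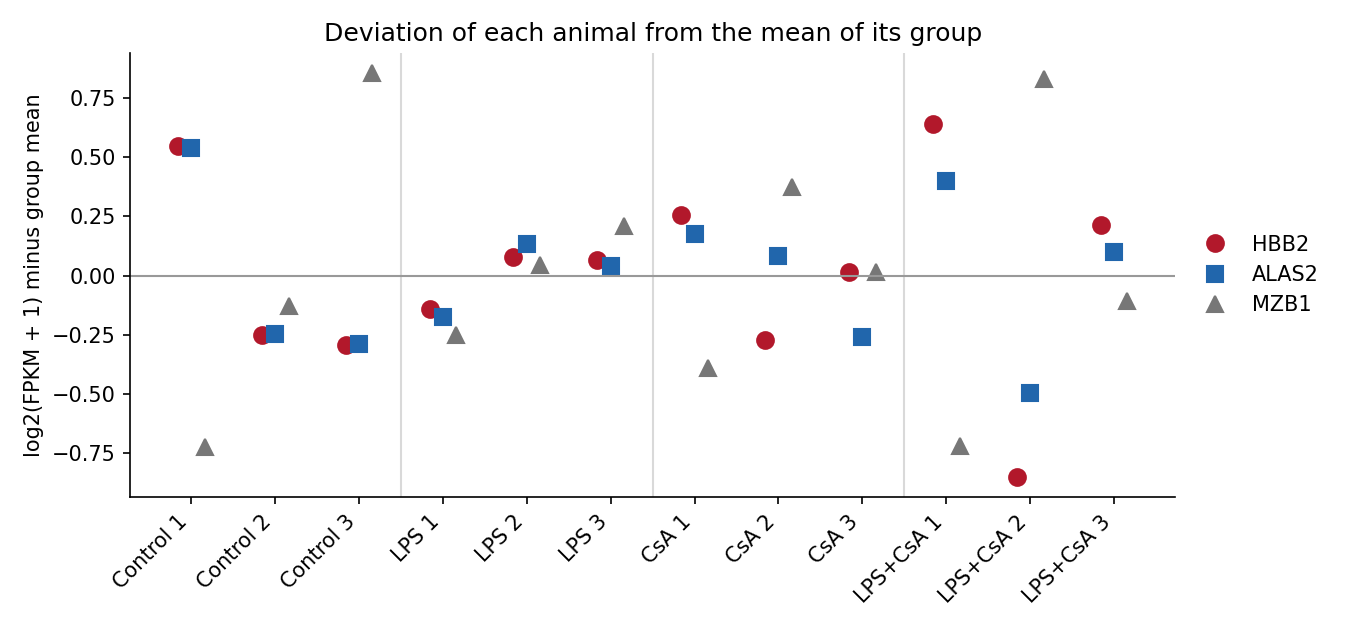
Deviation of each animal from the mean of its group, on the log2(FPKM + 1) scale, for HBB2 (circles), ALAS2 (squares) and the plasma cell gene MZB1 (triangles). HBB2 and ALAS2 lay on the same side of 0 in 10 of 12 animals, and MZB1 lay on the side opposite to HBB2 in 7, most widely in Control 1, Control 3, LPS+CsA 1 and LPS+CsA 2.

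The FPKM sums of the 12 libraries lay between 579986 and 747163, and between 11945 and 12398 genes reached 1 FPKM. Read totals are not given in the files used here. A rescaling by the median of ratios moved the median log2 difference of all genes by between 0.01 and 0.04 in the 5 comparisons, far less than the differences of HBB2 and ALAS2 between LPS and Control.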

How the data were processed

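Per the submitters' processing notes, the authors processed the reads with TopHat2, Cufflinks and Cuffnorm; no version or genome build is stated. The authors deposited FPKM values per library. Per the file headers, their comparison tables hold FPKM, read counts, p-values and log2 fold changes for listed genes only, so no count model was fitted. Symbols came from these tables, which pair 304 of 437 identifiers with one; 0 identifiers were found in the reference table of 38822 genes. No sequence is shown.

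HBB2 and ALAS2, the gene lists and the tests were chosen with earlier results of these data known. Values were analysed as log2(FPKM + 1), keeping genes that reached 1 FPKM in 3 or more libraries. Limma 3.58.1 (R 4.3.3) was fitted with a mean per group over all 12 libraries, 8 residual degrees of freedom, an intensity trend, two-sided, with Benjamini-Hochberg adjustment over 12794 genes and a threshold of 0.05. It was tested on simulated data. P-values measure differences against the spread between animals, the labels giving 1 library per animal. Exact permutation tests and correlations used scipy 1.17.1. Named genes are the members, listed genes with a symbol and, per member, the 5 genes with a symbol and 2 without whose deviations correlate best. KRT75 was given in full after its values were seen. Alternatives were another pseudocount, filters, rescaling, quantile normalization, the compared groups alone, no trend, array weights, a replicate block and leaving out each library. Python 3.11.15, numpy 2.4.6, pandas 2.3.3 and matplotlib 3.10.9 were also used.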

Additional observations from a re-analysis of the deposited data

How the results depend on the processing

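HBB2 and ALAS2 passed in none of the 3 tested comparisons under any alternative, and LPS+CsA against Control was the only comparison in which a member changed sign. There HBB2 went from -0.25 to 0.03 without Control 1 and to 0.18 without LPS+CsA 2; leaving out single animals ranged from -0.57 to 0.18 for HBB2 and from -0.52 to -0.05 for ALAS2. The counts of called genes were 0 with all libraries. They were 1 in LPS+CsA against Control and 1 in LPS+CsA against CsA when the compared groups were fitted alone, and when single animals were left out they ranged from 0 to 4 in CsA against Control, from 0 to 1 in LPS+CsA against Control and from 0 to 1 in LPS+CsA against CsA. The cause was not tested. The correlation of deviations kept its sign, at 0.836 to 0.950 with single animals left out. The exact permutation p of Pearson's r lay above the threshold without Control 1 or without any 1 of the LPS+CsA animals. That of Spearman's rho did so without CsA 1 (0.0579) and without LPS+CsA 2 (0.0509). Pearson's r of the deviations was 0.823 without LPS+CsA 1 and LPS+CsA 2, the 2 farthest from the HBB2 median. This left a single LPS+CsA animal, so no test is read. The correlation over all libraries moved to 0.762 without its 2 farthest, Control 1 and LPS+CsA 1. With a pseudocount of 0.1, ALAS2 differed by -1.02 in LPS against Control and by -1.04 in CsA against Control. The filter at a mean of 5 FPKM left out ALAS2 and gave no value for it. With the replicate number as a block, ALAS2 in CsA against Control stayed at -0.78 and HBB2 at -0.61. The limma adjusted p was 0.792 for both, and called genes stayed at 0. Nothing in the labels says that a number pairs animals, and 8 of 18 same-numbered pairs had a correlation of deviations over 0.1. These correlations lay between 0.19 and 0.28 for number 3, between -0.02 and 0.42 for number 2 and between -0.09 and 0.098 for number 1. Whether animals with the same number shared a batch was not tested. Read depth is not known beyond the counts given, and at 43 to 176 reads counting error limits ALAS2 more than HBB2.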
